A study of Homo sapiens with 4 samples.

Results

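A set of 10 transcripts that encode proteins of the epithelial junctions were followed through the crosslink sites of PDCD4 in breast epithelial cells. They are the classical cadherins CDH1 and CDH3, the catenins CTNNA1, CTNNB1 and CTNND1, and the desmosomal genes JUP, PKP2, PKP3, DSG2 and DSG3. A site was counted for one of these 10 genes when the gene label given to it by the authors held exactly that symbol. This took 374 of the 158922 sites in the PDCD4 list and 249 of the 111361 sites in the IgG list, and 10 of the 14416 genes labelled in either list.

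The study used iCLIP, in which ultraviolet light crosslinks proteins to RNA, the protein is immunoprecipitated, and the end of each cDNA marks the crosslinked nucleotide. The cells were MCF10A, an untransformed breast epithelial line of wild-type genotype, grown in DMEM/F12 with horse serum, epidermal growth factor, insulin, hydrocortisone and cholera toxin. Neither group carried a transgene or a knockdown, and they differed in the antibody alone: 2 samples were precipitated with antibody against PDCD4 and 2 with control IgG. The labels do not say whether the 2 samples of a group came from separate cultures, and 1 cell line is 1 genetic background. Each list pools the 2 samples of its group, so there was no spread between replicates and no test could be made. All intervals below are 95% intervals that cover counting error only, and cDNAs from PCR-amplified libraries need not be independent molecules. The lists hold sites kept by the peak calling of the authors, and crosslinks outside them are not counted. A score of 1 was found at 7.44% of the PDCD4 and 5.22% of the IgG sites. Most sites thus brought several cDNAs at once, and the intervals, which treat cDNAs as independent, may be too narrow. Each site is 1 nt wide, and its score is the number of cDNAs that ended there.

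Classical cadherins are transmembrane proteins that hold neighbouring epithelial cells together at adherens junctions. Their cytoplasmic tails bind p120-catenin and β-catenin, and β-catenin binds α-catenin, which links the complex to actin; free β-catenin also acts as a transcriptional co-activator in Wnt signalling. Desmosomes are built on the same plan, with desmogleins as the adhesive proteins and plakoglobin and the plakophilins connecting them to the keratin filaments. PDCD4 is best known for binding the helicase eIF4A and thereby holding back the start of translation.

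The PDCD4 sites with the highest scores of these transcripts are shown first, since they are the positions where most cDNAs ended. Each line gives 30 nt of the reference genome (GRCh38) in the direction of the transcript, 5′ to 3′. The capital letter marks the crosslinked nucleotide.
CTNND1, 3′UTR, chr11:57817246-57817275, plus strand: tccttttcctatcctTataggcctgtccct
CTNND1, 3′UTR, chr11:57818045-57818074, plus strand: ccatttcttcccactTtcatctaccttttc
PKP3, 3′UTR, chr11:404579-404608, plus strand: tctggaggagaaggtGacgtggcccagcgt
CDH1, coding sequence, chr16:68829717-68829746, plus strand: gttgcaccaaccctcAtgagtgtcccccgg
DSG2, coding sequence, chr18:31536199-31536228, plus strand: aagattatcctagaaAaaccatcactggca
CTNNA1, coding sequence, chr5:138781949-138781978, plus strand: ataaacttcaagtggGatcctaaaagtcta
CTNNA1, coding sequence, chr5:138930832-138930861, plus strand: gtaaaggaccactcaAaaatacatcggatg

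The first 3 windows hold a site with a score of 7, and the other 4 a site with a score of 5. No IgG site was listed in any of these 7 windows. CTNNA1 and CTNND1 had further sites with a score of 5 that are not shown. Among their windows, those around chr5:138933959 in CTNNA1 and chr11:57818310 in CTNND1 each held 1 IgG site with 4 cDNAs, and the others held none. The second CTNNA1 window, in exon 16 of 18, was chosen after its values were seen because it held 4 PDCD4 sites with 13 cDNAs. The pair of CTNND1 windows is rich in pyrimidines, while the PKP3 window is rich in purines before its crosslinked G, so the strongest positions of these transcripts do not share 1 type of sequence. Over all 374 PDCD4 sites of the junction transcripts the crosslinked base was T (U in the RNA) in 175 (46.8%, Wilson interval 41.8% to 51.9%), beside 46.7% of all sites in the PDCD4 list. Among the 249 IgG sites it was T in 140 (56.2%, interval 50.01% to 62.2%), beside 51.6% of all IgG sites. Thymine made up 31.9% of the 30-nt windows around the PDCD4 sites and 36.4% of those around the IgG sites. By gene, the share of PDCD4 sites at a T ran from 20.0% of the 20 sites in PKP3 to 64.2% of the 53 sites in CTNNB1.

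High scores were rare in these transcripts. Of the 374 PDCD4 sites, 200 had a score of 2, 91 a score of 3 and 12 a score of 5. A score above 5 was reached by 3 sites, 2 in CTNND1 and 1 in PKP3, and by none of the 249 IgG sites. Thus 2 of the 10 genes had a PDCD4 site above that score, beside 11% of the 9594 genes with at least 10 cDNAs over both lists. The highest IgG score was 5, found in CDH3, CTNNA1 and PKP2. In the genes not shown by sequence, the highest PDCD4 score was 4 in CTNNB1 (first reached in the 5′UTR, chr3:41199595), JUP (intron 1, chr17:41772779) and DSG3 (3′UTR, chr18:31477957). It was 3 in CDH3 (first reached in intron 9, chr16:68682713) and in PKP2 (intron 4, chr12:32862840).

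Summed over the 10 transcripts, the PDCD4 list held 924 cDNAs and the IgG list 607. Each sum was divided by the total of its list, which was 409308 cDNAs for PDCD4 and 276139 for IgG, giving 22.6 (interval 21.1 to 24.1) and 22.0 (20.3 to 23.8) per 10000 cDNAs. The log2 ratio of PDCD4 over IgG, after adding 1 cDNA to each sum, was 0.04 with an interval from -0.11 to 0.19. As a set, then, the junction transcripts took nearly equal parts of both lists. RNA abundance was not analysed here, so the lists give cDNAs per list and not binding per RNA molecule. Because the PDCD4 list is the larger by 1.48 times, equal parts of both lists correspond to 1.48 PDCD4 cDNAs for each IgG cDNA in the counts below.

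**Figure D1:**
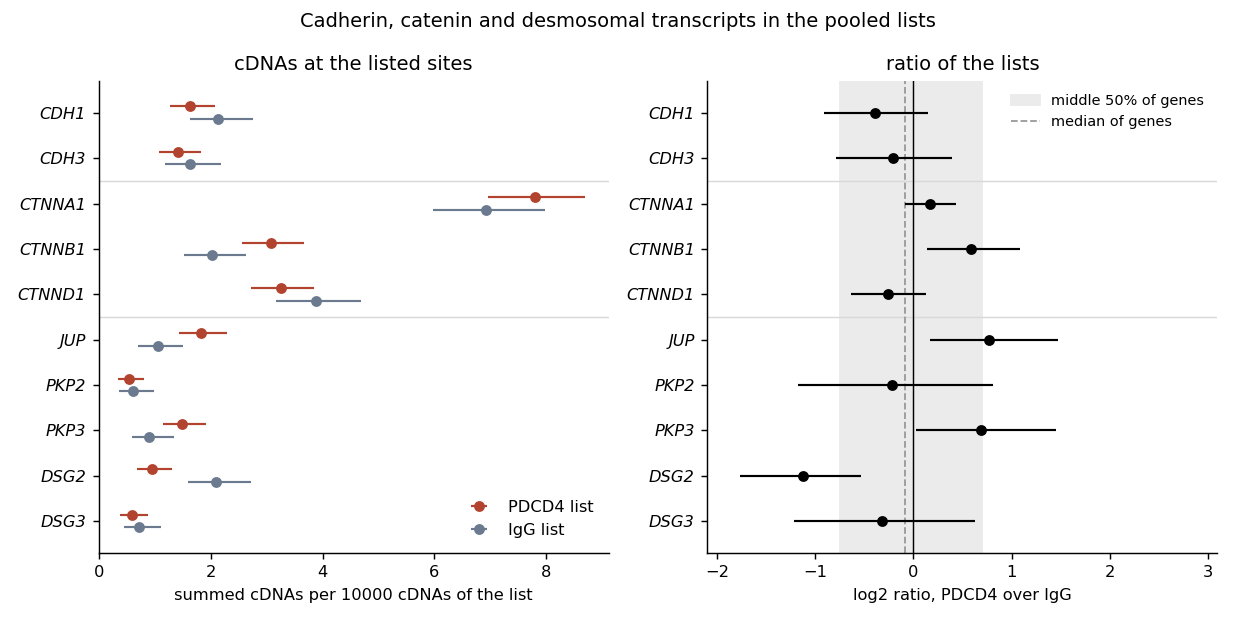
Left, summed cDNAs of each gene per 10000 cDNAs of the PDCD4 list (red) and the IgG list (grey), with exact Poisson intervals. Right, log2 ratio of PDCD4 over IgG with its counting interval, on the middle 50% of all genes (shaded) and their median (dashed). Grey lines separate cadherins, catenins and desmosomal genes; CTNNB1, JUP and PKP3 lie to the right of 0 beyond their intervals, and DSG2 to the left.

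Among the single genes, 4 had a ratio above 0 and 6 a ratio below 0. None of the 10 was higher in the PDCD4 list by 2-fold or more, beside 18.8% of the 9594 genes with at least 10 cDNAs over both lists. A single one, DSG2, was lower by 2-fold or more, beside 18.1% of all genes. The counting interval lay above 0 for 3 genes (CTNNB1, JUP and PKP3), beside 19% of all genes, and below 0 for 1 gene (DSG2), beside 21.5%. The median ratio of the 10 was -0.21 and that of all genes -0.08, with the middle 50% of all genes between -0.75 and 0.70. With 10 genes, a count of 3 or fewer is close to what these shares of all genes give.

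The classical cadherins were slightly more frequent in the IgG list, within counting error. CDH1 encodes E-cadherin, the main adhesive protein of epithelial adherens junctions (ENSG00000039068, chr16:68737292-68835537, plus strand). With PDCD4 it had 67 cDNAs at 29 sites and with IgG 59 at 26 sites, a log2 ratio of -0.39 (-0.91 to 0.15). CDH3 encodes P-cadherin, which is found in basal epithelial cells and whose gene lies beside CDH1 (ENSG00000062038, chr16:68636189-68727468, plus strand). It had 58 cDNAs at 32 sites against 45 at 17 sites, a ratio of -0.21 (-0.79 to 0.39). Together the cadherins had 125 PDCD4 and 104 IgG cDNAs, and a ratio of -0.30 whose interval (-0.69 to 0.09) reached above 0.

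Catenins made up most of the cDNAs of the set, with 578 of PDCD4 against 354 of IgG. CTNNA1, which encodes α-catenin, the link to actin, had the most, and is the longest of the 10 genes (ENSG00000044115, chr5:138610967-138935034, plus strand). Its 130 PDCD4 sites held 319 cDNAs and its 79 IgG sites 191, a ratio of 0.17 (-0.09 to 0.44). CTNNB1, the gene of β-catenin, had 126 cDNAs at 53 sites against 56 at 24 sites (ENSG00000168036, chr3:41194741-41260096, plus strand). Its ratio of 0.59 (0.14 to 1.08) was the only one among the catenins with an interval above 0. CTNND1 encodes p120-catenin, which keeps cadherins at the cell surface (ENSG00000198561, chr11:57753243-57819546, plus strand). It had 133 cDNAs at 44 sites against 107 at 46 sites, a ratio of -0.26 (-0.63 to 0.13). Labels with a second symbol were found at 4 PDCD4 and 5 IgG sites of CTNND1 and at 1 PDCD4 site of CDH1, and those sites cannot be given to 1 gene. The pooled ratio of the catenins was 0.14 (-0.05 to 0.33), so the difference between the lists was within counting error.

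The desmosomal genes went in both directions and balanced out, with 221 PDCD4 and 149 IgG cDNAs and a pooled fold of 0.998 (log2 interval -0.31 to 0.31). JUP, the gene of plakoglobin, had 75 cDNAs at 29 sites against 29 at 12 sites (ENSG00000173801, chr17:41754604-41786931, minus strand). Its ratio of 0.77 (0.17 to 1.47) was the highest of the 10 genes. The plakophilins bind desmosomal cadherins and desmoplakin. PKP3 had 61 cDNAs at 20 sites against 25 at 8 sites, a ratio of 0.69 (0.03 to 1.45; ENSG00000184363, chr11:392614-404908, plus strand). PKP2 had 22 cDNAs at 10 sites against 17 at 6 sites, a ratio of -0.21 (-1.18 to 0.81; ENSG00000057294, chr12:32790745-32896798, minus strand). Plakoglobin and plakophilin 3 thus leaned to PDCD4, and for plakophilin 2 the counts were too few to separate the lists.

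The desmogleins are the adhesive proteins of the desmosome, and both had ratios below 0. DSG2, the desmoglein of simple and many other epithelia, had 39 cDNAs at 17 PDCD4 sites and 58 cDNAs at 23 IgG sites (ENSG00000046604, chr18:31498177-31549008, plus strand). Its ratio of -1.13 (-1.76 to -0.53) was the lowest of the 10 genes. DSG3, a desmoglein of basal stratified epithelium, had 24 cDNAs at 10 sites against 20 at 8 sites, a ratio of -0.32 (-1.22 to 0.63; ENSG00000134757, chr18:31447741-31478702, plus strand). The interval of DSG2 did not overlap those of CTNNA1, CTNNB1, JUP and PKP3, while that of DSG3 overlapped all of the other nine.

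The location of the sites within the transcripts differed between the lists more than the sums did. Sites were assigned to coding sequence, 3′UTR, 5′UTR, noncoding exon or intron, in that order, over all transcripts of the gene in GENCODE release 44. In the PDCD4 list 34.1% (31.1% to 37.2%) of the cDNAs of the 10 genes lay in coding sequence, against 18.3% (15.4% to 21.6%) in the IgG list. When 3′UTR was taken before coding sequence the shares were 16.1% and 9.72%, and with a single transcript per gene 33.8% and 18.3%. In the first order, the coding share was lower with PDCD4 than with IgG in CDH1 (19.4% against 23.7%) and CTNNB1 (15.9% against 28.6%). The same held for JUP (18.7% against 24.1%) and PKP3 (44.3% against 48.0%), and the other genes were higher with PDCD4. CTNNA1 and CTNND1 gave 137 and 44 of the 315 coding PDCD4 cDNAs. The share in 3′UTRs was 31.4% (28.5% to 34.4%) against 19.8% (16.8% to 23.1%), and that in introns 29.4% (26.6% to 32.5%) against 58.5% (54.5% to 62.3%). Over all sites the same direction was seen, with 22.0% of PDCD4 and 10.2% of IgG cDNAs in coding sequence and 48.3% and 65.3% in introns. Summed over the 10 genes, 70.6% of PDCD4 cDNAs lay in exons against 51.0% over all sites, and 41.5% of IgG cDNAs against 34.0%. The medians over the 5721 genes with at least 10 cDNAs in each list were 47.4% and 30.8%. This higher exonic share did not hold for every part of the set. The cadherins had 52.0% (43.3% to 60.6%) with PDCD4 and 24.0% (16.8% to 33.1%) with IgG. CDH3 had 48.3% (35.9% to 60.8%) with PDCD4, an interval that includes the 51.0% of all sites. With IgG it had 6.67% (2.29% to 17.9%), below the 34.0% of all sites. In the IgG list CTNNA1 (23.6%) was below that value too, and the interval of PKP2 (23.5%, 9.56% to 47.3%) included it.

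**Figure D2:**
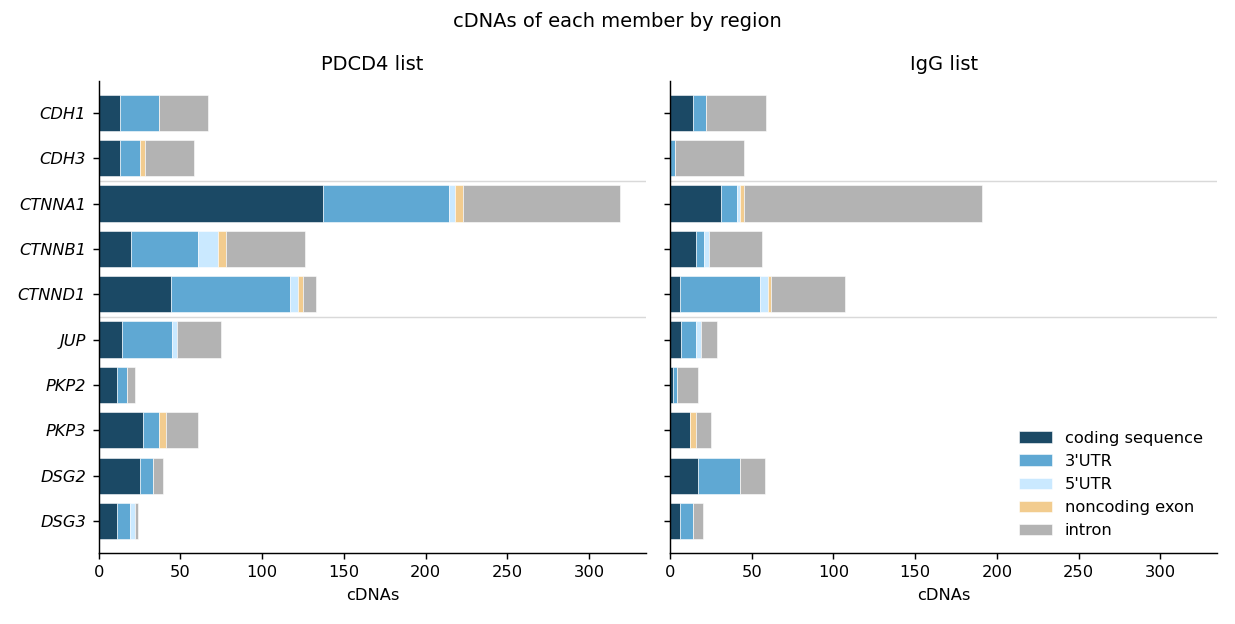
cDNAs of each gene in the PDCD4 list (left) and the IgG list (right), stacked by region. The grey intron part is the largest part of CTNNA1 and CDH3 in the IgG list, while coding sequence and 3′UTR together make up most of CTNNA1 and CTNND1 in the PDCD4 list.

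The exonic share was higher in the PDCD4 list for 9 of the 10 genes, beside 68.7% of the 5721 genes with at least 10 cDNAs in each list. JUP was the exception, with 64.0% (52.7% to 73.9%) of PDCD4 and 65.5% (47.4% to 80.1%) of IgG cDNAs in exons. The intervals of the lists were apart for 4 of the 10 genes, beside 22% of all genes. In CTNND1 the exonic share was 94.0% (88.6% to 96.9%) against 57.9% (48.5% to 66.9%). In CTNNA1 it was 69.9% (64.7% to 74.7%) against 23.6% (18.1% to 30.1%). P-cadherin showed the lowest IgG value of the set, with 48.3% (35.9% to 60.8%) against 6.67% (2.29% to 17.9%) for CDH3. PKP2 had 77.3% (56.6% to 89.9%) against 23.5% (9.56% to 47.3%), on 22 and 17 cDNAs.

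The groups differed in this share as well. In the PDCD4 list the exonic share was 52.0% (43.3% to 60.6%) for the cadherins, 73.7% (70.0% to 77.1%) for the catenins and 72.9% (66.6% to 78.3%) for the desmosomal genes. The cadherin interval lay below both others. In the IgG list the values were 24.0% (16.8% to 33.1%), 37.0% (32.1% to 42.1%) and 64.4% (56.5% to 71.7%), so that the desmosomal genes were the most exonic with control antibody and differed least between the lists.

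Taken on exonic sites alone, the ratios were higher. The 10 genes had 652 exonic cDNAs with PDCD4 against 252 with IgG, a log2 ratio of 0.80 (0.59 to 1.02). The median over the 10 was 0.73, beside 0.43 over the 6518 genes with at least 10 exonic cDNAs. CDH3, CTNNA1, CTNNB1 and PKP2 were higher in the PDCD4 list by 2-fold or more (4 of 10, beside 33.8% of all genes), so that this count was close to the background. The counting interval lay above 0 for 3 of 10 (CDH3, CTNNA1 and CTNNB1), beside 29.5% of all genes.

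By group, the exonic ratio was 1.13 (0.85 to 1.43) for the catenins, 0.78 (0.13 to 1.54) for the cadherins and 0.17 (-0.20 to 0.56) for the desmosomal genes. The catenin interval lay above that of the desmosomal genes, and the cadherin interval overlapped both. CTNNA1 carried much of the catenin value, with 223 exonic cDNAs against 45 and a ratio of 1.72 (1.27 to 2.24). Without CTNNA1 the catenins had 203 against 86 exonic cDNAs and a ratio of 0.66 (0.30 to 1.05), which overlapped the desmosomal genes. CTNNB1 had 78 against 24 exonic cDNAs (1.09, 0.46 to 1.86), and CTNND1 125 against 62 (0.43, -0.01 to 0.91). E-cadherin and P-cadherin differed in the exonic counts: CDH1 had 37 against 22 (0.16, -0.62 to 1.01) and CDH3 28 against 3 (2.29, 0.96 to 5.02). The intervals of the cadherins overlapped by a narrow margin, and the CDH3 value rests on 3 IgG cDNAs at a single site.

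DSG2 stayed on the IgG side in exons, with 33 against 43 cDNAs and a ratio of -0.94 (-1.65 to -0.26). It was the only one of the 10 genes with an exonic ratio below 0. For the other desmosomal genes the exonic counts were 48 against 19 in JUP (0.72, -0.02 to 1.62), 17 against 4 in PKP2 (1.28, -0.10 to 3.55), 41 against 16 in PKP3 (0.74, -0.08 to 1.72) and 22 against 14 in DSG3 (0.05, -0.95 to 1.16). None of these 4 intervals was clear of 0.

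Intronic sites showed the reverse. The 10 genes had 272 intronic cDNAs with PDCD4 against 355 with IgG, a ratio of -0.95 (-1.19 to -0.72), and their median of -1.10 compares with -0.54 over the 6915 genes with at least 10 intronic cDNAs. None of the 9 genes that had 10 or more intronic cDNAs was higher in the PDCD4 list by 2-fold or more, beside 12.5% of all genes. The interval lay below 0 for 6 genes (CDH1, CDH3, CTNNA1, CTNND1, PKP2 and DSG2), beside 31.5% of all genes. CTNND1 gave the lowest intronic value, with 8 PDCD4 and 45 IgG cDNAs (-2.92, -4.36 to -1.96). CTNNB1 had 48 against 32 (0.00, -0.66 to 0.71), JUP 27 against 10 (0.78, -0.23 to 2.08) and PKP3 20 against 9 (0.50, -0.62 to 1.90). The intervals of these 3 genes included 0.

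**Figure D3:**
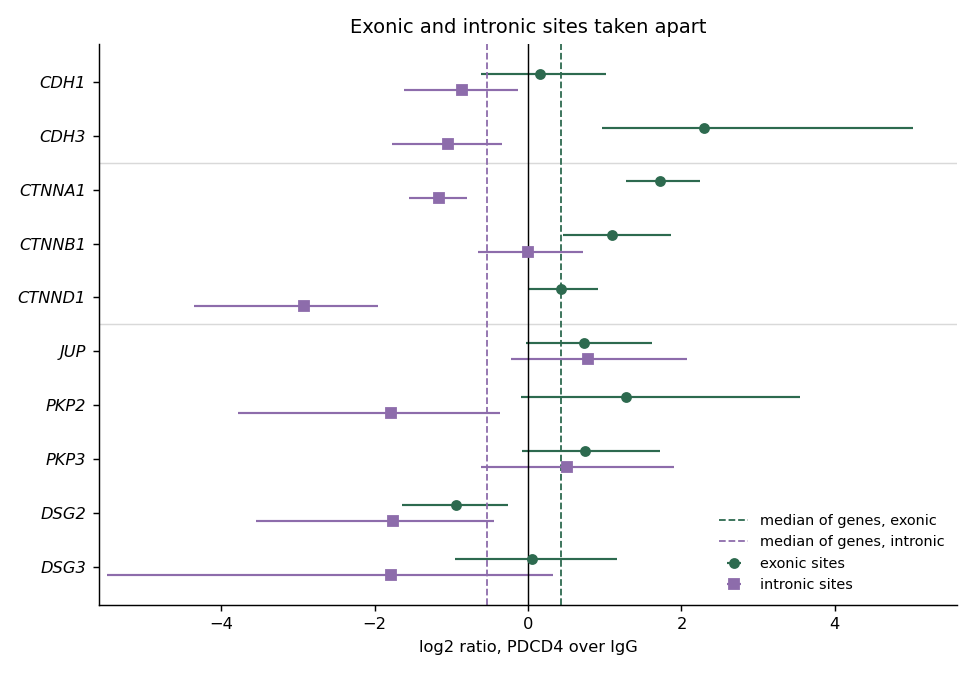
Log2 ratio of PDCD4 over IgG for exonic sites (green circles) and intronic sites (purple squares) of each gene, with counting intervals; dashed lines mark the medians of all genes. Exonic values lie to the right of intronic values for every gene except JUP.

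The introns that carried these cDNAs were mostly the long ones. In CDH1, intron 2 (63258 nt) held 20 of the 30 intronic PDCD4 cDNAs and 29 of the 37 intronic IgG cDNAs. Intron 2 of CDH3 (30634 nt) held 15 PDCD4 and 32 IgG cDNAs. In CTNNA1, intron 7 (58493 nt) held 28 against 56, while intron 10 (13300 nt) held 22 against 2. In the β-catenin gene most intronic cDNAs lay in intron 1 (24350 nt), with 41 against 31. Intron 1 of CTNND1 (26917 nt) held 4 PDCD4 and 26 IgG cDNAs, so that the long first intron was far from equal parts in p120-catenin and close to them in β-catenin. These introns were numbered on 1 reference transcript per gene, and an intronic site of that transcript may be exonic in another.

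Within exons, coding sequence and 3′UTR did not move alike. In p120-catenin the difference lay in the coding sequence, with 44 PDCD4 and 6 IgG cDNAs (2.12, 1.07 to 3.83), while its 3′UTR had 73 and 49 (log2 interval -0.53 to 0.56). In β-catenin it lay in the 3′UTR, with 41 against 5 cDNAs (2.24, 1.13 to 4.16), while its coding sequence had 20 against 16 (-0.26, -1.27 to 0.80). In α-catenin both parts were higher in the PDCD4 list, with 137 against 31 cDNAs in coding sequence (1.54, 1.01 to 2.19) and 77 against 10 in the 3′UTR (2.26, 1.42 to 3.49). The region with a PDCD4 value clear of 0 thus differed from catenin to catenin. Over all sites, coding sequence took 22.0% of PDCD4 and 10.2% of IgG cDNAs, and 3′UTRs took 20.0% and 17.2%. A higher coding level in the PDCD4 list was thus general, and whether the catenins went beyond it was not tested.

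In the cadherins, CDH1 had 13 PDCD4 and 14 IgG cDNAs in coding sequence (-0.67, -1.88 to 0.52) and 24 against 8 in its 3′UTR (0.91, -0.18 to 2.38). CDH3 had 13 coding cDNAs with PDCD4 but none with IgG, which is at least 2.92-fold higher when 3 cDNAs are taken as the upper limit that a count of 0 in the IgG list allows; the counting interval, which covers the PDCD4 count too, began at a log2 ratio of 1.04. Its 3′UTR had 12 against 3 (1.13, -0.46 to 3.90). Of these 4 comparisons, that of the coding sequence of P-cadherin alone was clear of equal levels. Coding sequence over all sites also took a larger part of the PDCD4 list than of the IgG list.

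In the desmosomal genes, DSG2 was lower with PDCD4 in its 3′UTR, with 8 against 26 cDNAs (-2.15, -3.62 to -1.08), as it was in its introns, with 6 against 15 (-1.76, -3.54 to -0.44). Its coding sequence had 25 against 17 cDNAs (-0.04, -0.96 to 0.97). JUP showed the opposite, with 31 against 9 in the 3′UTR (1.11, 0.11 to 2.47) and 14 against 7 in coding sequence (0.34, -0.97 to 1.98). PKP3 had 10 cDNAs in its short 3′UTR (342 nt) with PDCD4 but none with IgG, at least 2.25-fold higher by the same limit, with an interval that began at a log2 ratio of 0.60. Of those 10 cDNAs, 7 came from the single site shown above, at nt 2503 of the mRNA. An IgG site with 3 cDNAs lay in the same exon at nt 2475. It was counted as coding sequence, so the absence of IgG cDNAs depends on where the 3′UTR begins. DSG3 had 8 against 8 in the 3′UTR (-0.57, -2.18 to 1.04) and 11 against 6 in coding sequence (0.21, -1.25 to 2.03). PKP2 had 11 against 2 in coding sequence (1.43, -0.30 to 5.11) and 6 against 2 in the 3′UTR (0.65, -1.47 to 4.36).

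**Figure D4:**
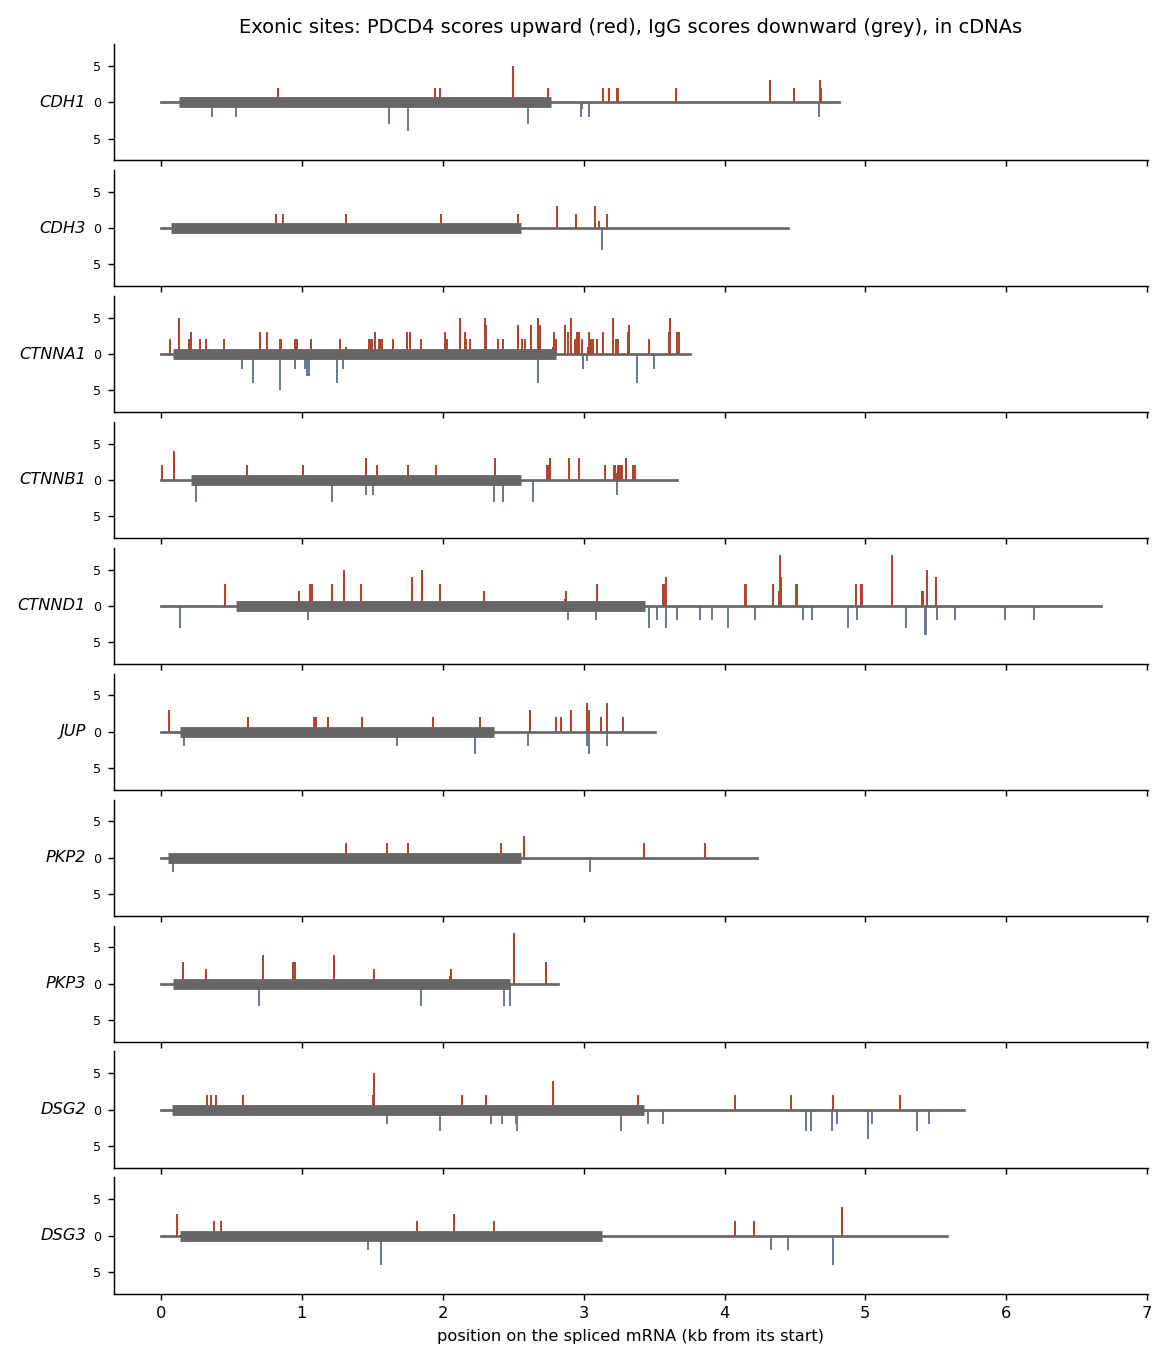
Exonic sites on the spliced reference mRNA of each gene, in kb from its start; the thick bar is the coding sequence, and the height of each stem is the score in cDNAs, upward for PDCD4 (red) and downward for IgG (grey). CTNNA1 is covered along its whole length by PDCD4 sites, DSG2 has its IgG sites mainly towards the 3′ end, and CTNNB1 has a dense run of PDCD4 sites in the 3′UTR.

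Positions along the spliced mRNA followed these differences. Of the 622 PDCD4 and 232 IgG cDNAs of the 10 genes that lay on the reference mRNA, 63.3% (59.5% to 67.0%) and 62.9% (56.6% to 68.9%) were in its 3′ part, beyond the midpoint. The equal averages hid opposite genes. In CTNNA1 the share beyond the midpoint was 69.0% (62.5% to 74.8%) in the PDCD4 list against 34.1% (21.6% to 49.5%) in the IgG list. In DSG2 it was 30.3% (17.4% to 47.3%) against 67.4% (52.5% to 79.5%), and in CTNND1 59.8% (51.0% to 68.1%) against 83.9% (72.2% to 91.3%). In the remaining genes the intervals of the lists overlapped, on as few as 3 IgG cDNAs in CDH3. This share was not counted over all genes, so no background can be set beside these values.

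Neighbouring sites were joined where they lay within 20 nt of each other. The run with most cDNAs was in the 3′UTR of β-catenin, at chr3:41240000-41240051, where 10 PDCD4 sites with scores of at most 2 held 17 cDNAs in 52 nt. An IgG site with 2 cDNAs lay within the same stretch. The 3′UTR of α-catenin had a run of 7 PDCD4 sites with 15 cDNAs in 52 nt at chr5:138934217-138934268, with no IgG site in it. In p120-catenin the run around the first sequence shown above, at chr11:57817259-57817270, held 13 cDNAs at 3 sites and no IgG site. E-cadherin had 4 PDCD4 sites with 7 cDNAs in 8 nt of its 3′UTR (chr16:68833963-68833970). JUP had 3 PDCD4 sites with 9 cDNAs in 17 nt of its 3′UTR (chr17:41755077-41755093), and there 2 IgG sites with 5 cDNAs were listed as well. The remaining genes had at most 7 cDNAs in any run.

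Only 3 positions of the 10 genes were present in both lists. A coding position of CTNNA1 (chr5:138824697) had a PDCD4 score of 2 and an IgG score of 5, a coding position of CTNNB1 (chr3:41233582) had 3 and 2, and a 3′UTR position of JUP (chr17:41754948) had 2 and 2. According to the methods, crosslink sites of the IgG samples were subtracted before the PDCD4 peaks were called, but 721 positions of the deposited lists are shared. The effect of that subtraction on the counts of these genes was not tested.

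In both lists, more exonic sites of the junction transcripts lay close to the 5′ ends of exons than close to their 3′ ends. On the reference transcripts, 59 of the 252 exonic PDCD4 sites lay in the first 50 nt after a 3′ splice site and 4 in the last 50 nt before a 5′ splice site. The same windows took 17 and 2 of the 92 exonic IgG sites. CTNNA1 gave 30 of the 59 PDCD4 sites, with 72 cDNAs, against 1 site at the other end of its exons. CTNND1 followed with 8 sites and JUP with 5, while CDH3 had none in either window. In introns, 3 of 121 PDCD4 sites lay within 100 nt after a 5′ splice site and 3 within 100 nt before a 3′ splice site. Sites in these windows were not counted over all genes, so no background can be set beside these values. Whether the difference between exon ends is particular to the junction transcripts was not tested.

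Per length of exon, α-catenin stood apart. It had 25.3 PDCD4 cDNAs per kb of exon (exact Poisson interval 22.0 to 28.8), followed by PKP3 with 10.8 (7.75 to 14.7), JUP with 9.71 (7.16 to 12.9), CTNND1 with 8.22 (6.84 to 9.79) and CTNNB1 with 6.63 (5.24 to 8.28). CDH1 had 6.09 (4.29 to 8.39), CDH3 4.38 (2.91 to 6.33), DSG3 3.94 (2.47 to 5.97), DSG2 3.48 (2.39 to 4.88) and PKP2 1.65 (0.963 to 2.65). From PKP3 down, each gene overlapped the next in this order. Exon length was that of the exons of all annotated transcripts joined, which can exceed the reference mRNA. It was 11759 against 3661 nt in CTNNB1, 15212 against 6670 nt in CTNND1 and 3795 against 2817 nt in PKP3. The order below CTNNA1 therefore depends on the length used. In the IgG list the order was led by CTNNA1 with 5.10 (3.72 to 6.82) and DSG2 with 4.53 (3.28 to 6.10) per kb, and every gene overlapped the next.

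Further genes of the junctions were read from 5 lists chosen by function. Their ratios are over all sites, introns included. Exonic ratios of the genes named are given after them without intervals, beside a median of 0.43 over the 6518 genes with enough exonic cDNAs. No minimum of exonic cDNAs was set for the genes named, so some of these ratios rest on few cDNAs. Of the other desmosome genes, 7 of 11 had at least 10 cDNAs, 2 were higher in the PDCD4 list by 2-fold or more and 1 lower, and the median log2 ratio was 0.24. The plakin-family genes EVPL (envoplakin, 50 against 6 cDNAs, 2.30) and PPL (periplakin, 105 against 22, 1.64) had the highest ratios among the genes with 50 or more cDNAs over both lists, to which the named genes of each list are limited. The lowest of those were PKP4, a p120-related armadillo protein (94 against 123, -0.95), and DSC3, a desmocollin (33 against 19, 0.20). The 1 gene lower by 2-fold or more was PERP (18 against 31, -1.32, -2.28 to -0.47), named after its values were seen. Over all sites, the envoplakin and periplakin ratios were above every value of the 10 transcripts, DSG2 to JUP. On exonic sites the ratios were 2.85 for EVPL, 3.34 for PPL, 0.08 for PKP4, 0.24 for DSC3 and -1.02 for PERP.

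Of the other adherens junction genes, 12 of 19 had enough cDNAs, with 2 higher by 2-fold or more, 2 lower and a median of 0.13. NECTIN1, an immunoglobulin-like adhesion molecule, had 228 against 67 cDNAs (1.18) and ARVCF, a p120-catenin relative, 40 against 20 (0.40). VEZT, the gene of vezatin, had 30 against 42 (-1.04) and NECTIN3 27 against 32 (-0.80). With fewer cDNAs, NECTIN2 (18 against 3, 1.68, 0.24 to 4.42) and CDH2 (14 against 21, -1.12, -2.24 to -0.11) also passed 2-fold. Among tight junction genes 5 of 11 could be read, none passed 2-fold in either direction, and the median was -0.17. The scaffold gene TJP1 had 90 against 100 cDNAs (-0.72) and the adhesion molecule F11R 32 against 24 (-0.17). The medians of both lists lay within the range of the 10 transcripts. On exonic sites the ratios were 1.33 for NECTIN1, 3.43 for ARVCF, -1.38 for VEZT, -0.38 for NECTIN3 and 0.02 for CDH2. Those of TJP1 and F11R were 0.10 and -0.86, and NECTIN2 had no exonic value.

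The genes that control β-catenin turnover were spread widely. Of 8 genes, 7 could be read, of which 2 were higher by 2-fold or more and 3 lower, with a median of -0.81. AXIN1, the scaffold of the destruction complex, had 89 against 21 cDNAs (1.46) and APC, its partner, 23 against 40 (-1.34). The kinase genes GSK3B (126 against 149, -0.81) and CSNK1A1 (153 against 103, 0.999-fold) lay between them. With fewer cDNAs, GSK3A (19 against 4, 1.43), BTRC (14 against 21, -1.12) and CTNNBIP1 (5 against 14, -1.89) passed 2-fold as well. Repressors of CDH1 transcription were read for 4 of 6 genes, with none higher by 2-fold or more, 1 lower and a median of -0.60. ZEB1 had 49 cDNAs in each list (-0.57) and TWIST2 187 against 485 (-1.94). On exonic sites the ratios were 1.98 for AXIN1, -0.44 for APC, 0.43 for GSK3B and 0.94 for CSNK1A1. They were 3.13 for GSK3A, 0.17 for BTRC, -0.30 for CTNNBIP1, 2.24 for ZEB1 and 0.33 for TWIST2. GSK3B, BTRC, ZEB1, TWIST2 and, by a very small margin over all sites, CSNK1A1 had ratios below 0 over all sites and above 0 in exons. The exonic ratios of GSK3B, BTRC and TWIST2 were not above the median of 0.43 over all genes. The lists are small, and their counts are read against 18.8% of all genes higher and 18.1% lower by 2-fold or more.

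**Figure D5:**
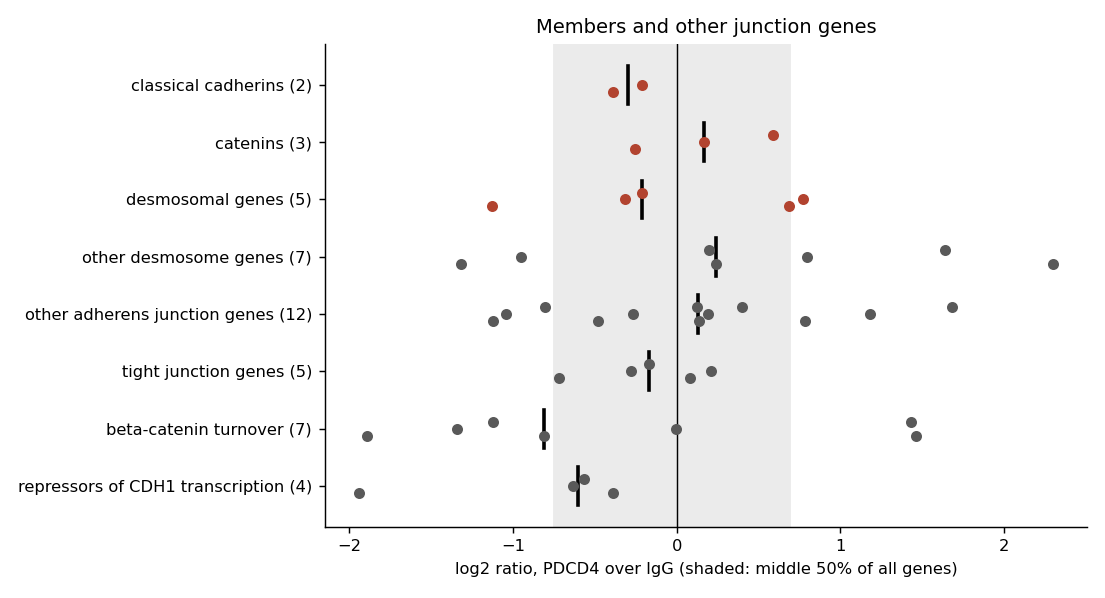
Log2 ratio of PDCD4 over IgG for each gene with at least 10 cDNAs, by group; red points are the 10 transcripts, grey points the other junction lists, black bars the medians, and shading the middle 50% of all genes. Numbers in brackets count the genes drawn; EVPL at 2.30 and TWIST2 at -1.94 are the highest and the lowest values.

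Likeness to other transcripts was measured by the Euclidean distance over the log2 ratio and the shares of PDCD4 cDNAs in coding sequence, 3′UTR and intron, among 796 genes with at least 100 PDCD4 cDNAs. VCL, the gene of vinculin, an actin-binding protein of adherens junctions and focal adhesions, lay nearest to the catenins at a distance of 0.0829, with 185 against 109 cDNAs. AP2B1 (0.109) and NCKAP1 (0.117) came next. YAP1 (0.133) and TANC2 (0.134) were near to the cadherins, and AP2B1 (0.104), HSPA4 (0.107) and NCKAP1 (0.150) to the desmosomal genes. Nearness here describes these 4 measures and nothing of shared function.

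The labelled cell type was checked against marker genes. The breast epithelial markers KRT5 (352 PDCD4 and 74 IgG cDNAs), KRT17 (37 and 18), KRT18 (27 and 10), EPCAM (12 and 4) and ITGB4 (439 and 118) were present in both lists, and KRT14 had 3 PDCD4 cDNAs. All 7 immune, fibroblast and endothelial markers had no site in either list.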

How the data were processed

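The crosslink sites were analysed from 2 lists, 1 for PDCD4 and 1 for IgG. Reads had been mapped to Ensembl release 88 and handled with iCount by the authors, who deposited the score of each site as a raw cDNA count, pooled over 2 replicates; the score filter named in the methods is not applied in the deposited lists, and it was not applied here. Region labels came from GENCODE release 44 on GRCh38, the build of the Ensembl release; no site lay past the end of a chromosome, and 99.5% of the gene identifiers of the PDCD4 sites were known to it. Log2 ratios have exact conditional (Clopper-Pearson) intervals, shares Wilson intervals and sums exact Poisson intervals at the 95% level. The background was taken from genes with at least 10 cDNAs over both lists. The interval and ratio functions were tested on simulated data. Python 3.11.15, pandas 2.3.3, scipy 1.17.1, statsmodels 0.14.6 and matplotlib 3.10.9 were used.

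The 10 genes and all gene lists were chosen with earlier results of these data known. All 10 genes were named, together with, from each junction list, the 2 genes with the highest and the 2 with the lowest ratio among those with 50 or more cDNAs, the 3 nearest genes of each group, and the highest site of each gene, of which those with a score of 5 or more are shown. The second CTNND1 and second CTNNA1 windows, PERP, NECTIN2, CDH2, GSK3A, BTRC and CTNNBIP1 were named outside this rule. Alternatives concerned the score threshold, numbers of sites, the totals, the zero of the scale, the pseudocount, shared positions, sites with several symbols, the highest sites, introns, the group of JUP, the order of regions and a single transcript per gene. Some genes that this rule names are not reported here. RNA-seq, polysome and protein data were not analysed here.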

Additional observations from a re-analysis of the deposited data

How the results depend on the processing

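No paired analysis was possible because each deposited list pools its 2 replicates, and for the same reason no replicate could be left out. With scores greater than 5 the log2 ratio was 1.95 for the catenins and 1.04 for the desmosomal genes, 2 genes were higher by 2-fold or more, and the coding share was 0%, but this rests on 3 PDCD4 sites; the cadherins have no such site and gave no value. With sites outside introns the ratio was 0.78 for the cadherins and 1.13 for the catenins, and 4 genes were higher by 2-fold or more. Leaving CTNNA1 out, an alternative chosen after seeing the data, gave an exonic ratio of 0.66 for the catenins. When 3′UTR was taken before coding sequence, 16.1% of the PDCD4 cDNAs of the 10 genes were coding, and 9.72% of the IgG cDNAs, a value added after seeing the data. All other alternatives moved the pooled ratios, the coding share and the count of genes by less than the counting intervals. For single genes, 75 of 82 values stayed within their interval, 7 moved beyond it, and no value whose interval was clear of 0 changed sign. Depth limits the desmosomal genes most: PKP2 and DSG3 had 17 to 24 cDNAs in each list.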
